A study of Mus musculus with 2 samples.

Results

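The genes described here are 9 members of the complement system, C1qa, C1qb, C1qc, C1ra, C4b, C2, C3, Cfb and Cd55, chosen by name from the 31053 genes of the count matrices. The choice was made with earlier results of these data known. Each was followed across marker-gated classes of kidney cells and across both libraries of the experiment. The experiment compared the kidneys of MRL-lpr mice at an old and a young age, a strain in which the Fas lpr mutation leads to lupus-like nephritis with age and which both groups share, so that no unaffected strain stands beside them. There was 1 library per age, each from kidneys pooled over a number of animals that the labels do not give. The cells were taken through a density gradient, a magnetic kit that enriches innate lymphoid cells (ILCs) and a sort for viability, and then through droplet-based single-cell RNA sequencing, so a share of a library is not a frequency in the kidney. With 1 library per age no difference could be tested against the spread between mice, and age and library cannot be told apart.

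Complement is a cascade of blood and tissue proteins that tags immune complexes, microbes and dying cells. C1q, built of the chains A, B and C, recognizes bound antibody and activates the proteases C1r and C1s, which cleave C4 and C2. Factor B amplifies the deposition of C3, on which all routes converge, while regulators such as CD55 (decay-accelerating factor) dismantle the enzyme complexes on host cells. Most circulating complement comes from the liver, whereas C1q is made largely by macrophages, and kidney tubules are known to make C3, C4 and factor B locally. Glomerular deposits of C1q, C3 and C4 are a hallmark of lupus nephritis.

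Barcodes were kept from 200 detected genes upwards and up to 20% mitochondrial counts. This left 11429 of 15076 young barcodes (median 7881 unique molecular identifiers, UMIs, per cell) and 10232 of 12622 old barcodes (median 6933 UMIs). A cell entered a class when it had UMIs of a minimum number of the fixed markers of that class, 3 for most, and passed the gate of no other class. The class was then called by that name with "-like", and no member was a marker. An exception was a cell past both the B and the plasma gate, which was called plasma-like. The macrophage-like class had 160 young and 147 old cells, the monocyte-like class 62 and 234, the B-like class 345 and 157, the T-like class 478 and 3980, the ILC2-like class 1427 and 314, and the proximal tubule (PT)-like class 6078 and 3443. Genes with the largest fold over the other classes included Ms4a7, Ccl8 and Ccl12 for the macrophage-like class. Those 10 genes held no marker of another class for any of the 12 classes, but no marker of its own either for the PT-like, T-like, plasma-like and endothelial-like classes. Only 6 young plasma-like and 15 old endothelial-like cells were found.

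Several features of the libraries bear on all values. The study's methods name female mice, yet 50.8% of young and 40.6% of old cells had UMIs of Y-linked genes (Uty, Kdm5d, Ddx3y or Eif2s3y) and none of Xist, and 14.6% and 29.1% had Xist and no Y-linked UMI, so both libraries held cells of both kinds in different proportions. The libraries shared 26 barcodes, 0.254% of the old and 0.227% of the young cells. Cells past the gates of several lineages, 722 young and 655 old, were treated as possible doublets and left out, as were 1409 young and 690 old cells past no gate. Levels are given as CPM, the sum of a gene's UMIs in a class for every 1000000 UMIs of that class, with exact Poisson 95% intervals. Intervals are exact Clopper-Pearson for shares of cells and exact binomial for ratios, and a sum of 0 is given the limit of 3 counts. All of these cover counting error only. A higher level in a class may reflect more cells that express the gene or more RNA per cell, which the sums alone cannot tell apart.

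The C1q genes lie side by side on the minus strand of chromosome 4 (mm10, GENCODE M21 annotation), C1qb at chr4:136880129-136886187, C1qc at chr4:136889804-136893065 and C1qa at chr4:136895917-136898803, within 18675 bases. C4b at chr17:34728380-34743882, Cfb at chr17:34856374-34862518 and C2 at chr17:34862604-34898265 lie on the minus strand in the major histocompatibility complex, with 85 bases between Cfb and C2. C3 lies apart on the same chromosome at chr17:57203970-57228136 (minus strand), C1ra at chr6:124512405-124523443 (plus strand) and Cd55 at chr1:130439027-130462744 (minus strand). Counts of C4b, C1ra and Cd55 are uncertain because each has a close copy. C4a, the copy of C4b, was not a feature of the matrices, C1rb had 0.571 CPM in PT-like cells when young and 2.44 CPM when old, and Cd55b had 0 or 1 UMI in the PT-like, macrophage-like and B-like cells of each library and 3 in old T-like cells. The annotated gene Gm20547, at chr17:34856412-34882042 on the minus strand, covers 6107 bases of Cfb and also overlaps C2. It had 0 UMIs in these classes, T-like cells included. Whether reads of Cfb or C2 were lost through this overlap was not tested, so their counts are uncertain too.

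The promoters of C1qb, C1qc and C3 are shown because the C1q chains moved together across classes while C3 was found in both myeloid and tubule cells. No promoter of C1qa was available. The RefSeq promoter table (GRCm38.p6) held 5 of the 9 members, and each sequence below runs 5′ to 3′ on the gene's strand from 250 bases before to 50 bases after the start site. Capitals mark letters that match GAGGAA (core of PU.1, a factor of myeloid cells), TTNNGNAA (C/EBP, factors of myeloid and acute-phase genes) or TATAAA on either strand.
C1qb, chr4:136886151-136886450: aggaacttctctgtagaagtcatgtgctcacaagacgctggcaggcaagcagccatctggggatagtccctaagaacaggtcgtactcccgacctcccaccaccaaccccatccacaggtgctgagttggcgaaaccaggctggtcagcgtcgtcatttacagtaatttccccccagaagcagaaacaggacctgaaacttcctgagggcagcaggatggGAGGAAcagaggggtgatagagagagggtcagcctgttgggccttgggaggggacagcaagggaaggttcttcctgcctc
C1qc, chr4:136892865-136893164: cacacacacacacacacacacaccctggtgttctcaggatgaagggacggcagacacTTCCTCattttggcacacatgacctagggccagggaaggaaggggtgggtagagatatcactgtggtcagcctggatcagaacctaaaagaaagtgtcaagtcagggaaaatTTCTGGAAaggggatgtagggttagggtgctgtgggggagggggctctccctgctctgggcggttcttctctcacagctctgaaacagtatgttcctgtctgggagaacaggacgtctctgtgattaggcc
C3, chr17:57228087-57228386: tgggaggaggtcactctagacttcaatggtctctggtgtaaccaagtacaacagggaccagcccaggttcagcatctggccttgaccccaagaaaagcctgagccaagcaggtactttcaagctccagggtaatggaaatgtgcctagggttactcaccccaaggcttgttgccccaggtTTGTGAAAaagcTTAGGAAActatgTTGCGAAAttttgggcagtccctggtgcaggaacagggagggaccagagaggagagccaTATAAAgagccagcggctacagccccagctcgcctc
C1qb held GAGGAA from base -30, and C1qc held it on the opposite strand, read as TTCCTC, from base -193. C1qc also held TTNNGNAA from base -81. C3 held TTNNGNAA from bases -70, -58 and -45, the last on both strands. Its TATAAA began at base 15, after the annotated start site, so the positions given for C3 depend on that annotation. Of all 32851 promoters of this length, 28.3% held GAGGAA, 40.7% held TTNNGNAA and 13.6% held TATAAA. The core letters of the interferon-stimulated response element were in 3.4% of them and in none of these 5 members. Letters of this kind are common, and a match is not a bound site.

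Among the gated classes the C1q chains were nearly confined to macrophage-like cells. C1qa, the A chain, had 2090 UMIs there in the young library, or 1734 CPM (1661–1810.4), and 4965 UMIs in the old library, or 2103 CPM (2045–2162). C1qb had 1170.1 CPM (1109.8–1233) when young and 1459.7 CPM (1411–1509) when old. C1qc had 972 CPM (917–1029) and 1169.5 CPM (1126–1214). The levels of all 3 chains were therefore slightly higher in the old library, with log2 ratios, old over young, of 0.28 (0.20–0.35), 0.32 (0.23–0.41) and 0.27 (0.17–0.37). This direction depended on the cells with the most UMIs. Without the 5% of cells with the most UMIs the log2 ratios were -0.29, -0.11 and -0.27, and with the mean of each cell's own CPM they were -0.68, -0.57 and -0.65, so no direction between the ages is given for C1q.

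Within the macrophage-like class C1q was found in some cells and not in others. Any C1q UMI was found in 66 of 160 young cells (41.2%) and in 47 of 147 old cells (32.0%), and all 3 chains in 64 and 43 of them. A cell with C1q therefore nearly always had all 3 chains. The share with C1qa was 40.6% (32.9–48.7%) in young and 31.3% (23.9–39.5%) in old macrophage-like cells, and 40.3% and 24.7% once all cells were thinned to 1000 UMIs, which left out 1 shallower cell in each library. T-like cells, which are not known to make C1q, had C1qa UMIs in 0.402% of old cells (median 4797 UMIs per cell against 12970.0 in old macrophage-like cells) and in 0 of 478 young cells, for a level of up to 1.21 CPM. The chains kept almost the same proportions in both libraries, with 44.7%, 30.2% and 25.1% of C1q UMIs from C1qa, C1qb and C1qc in young and 44.4%, 30.8% and 24.7% in old macrophage-like cells. Cells with 10 or more C1q UMIs had a median of 4702 UMIs in the young and 18608 in the old library, while the median over all kept cells was 7881 and 6933.

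Outside macrophage-like cells C1q was rare. Monocyte-like cells had no C1qa UMI in the young library, a level of up to 5.83 CPM, and 28.9 CPM in the old, where 1 of 234 cells held 75 of the 76 UMIs. In PT-like cells C1qa was at 0.118 CPM when young and 0.170 CPM when old. Macrophage-like cells held 74.1% of all young and 90.5% of all old C1qa UMIs, and cells past several gates held most of the rest, 23.7% and 6.98%.

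**Figure D1:**
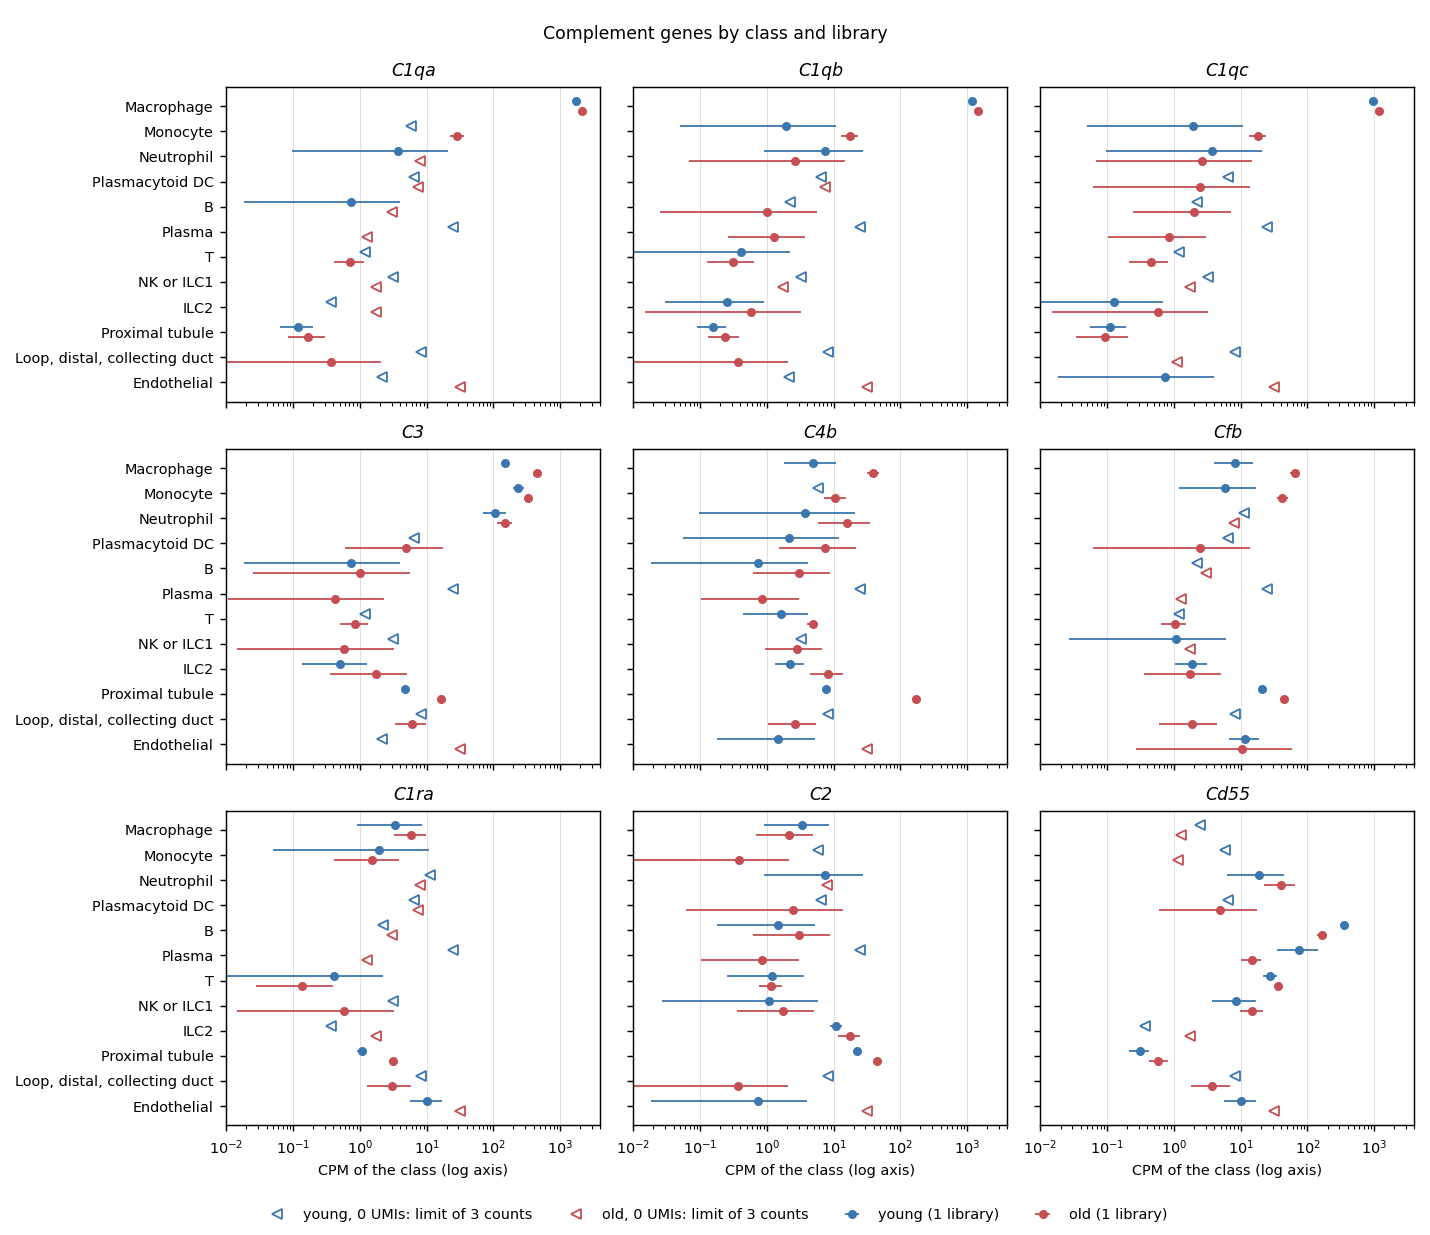
Level of each of the 9 complement genes (CPM, log axis starting at 0.01, which hides some lower interval ends) in the 12 marker-gated classes of the young and old libraries. Points are summed UMIs per class with exact Poisson 95% intervals, and open symbols mark the limit of 3 counts where a class had none; C1q points stand far to the right only in macrophage-like cells, C4b in old PT-like cells reaches 169 CPM, and Cd55 is highest in young B-like cells at 348 CPM.

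C1ra, which encodes the protease that C1q activates, was found at low levels in several classes and did not share the pattern of C1q. Young endothelial-like cells had 10.2 CPM (5.57–17.1), against 0 UMIs in the 15 old ones, a level of up to 31.5 CPM, so the ages cannot be compared there. Young PT-like cells had 1.08 CPM (0.893–1.29) and old ones 3.12 CPM (2.71–3.58), a log2 ratio of 1.53 (1.20–1.87). Macrophage-like cells had 4 and 14 UMIs, or 3.32 and 5.93 CPM.

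C4b, which encodes the C4 protein that C1s cleaves, differed most between the libraries, and it did so in PT-like cells. It had 857 UMIs or 7.76 CPM (7.25–8.30) in 6078 young cells and 10919 UMIs or 169 CPM (166–172) in 3443 old cells. The level was 21.7-fold higher in the old library, a log2 ratio of 4.44 (4.34–4.54) that ranked 71 of 14539 genes. Cells with a C4b UMI were 698 of 6078 (11.5%) in the young and 2308 of 3443 (67.0%) in the old library, and 0.700% and 14.2% after thinning to 1000 UMIs, which left out 81 young and 16 old cells. The old cells thus had C4b broadly rather than in a few cells, and leaving out the 1% of cells with the most C4b gave a log2 ratio of 4.61. PT-like cells held 87.6% of young and 86.5% of old C4b UMIs.

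C4b was also higher in several other classes of the old library, at far lower levels. In young T-like cells it was at 1.62 CPM (0.440–4.14) and in old ones at 4.90 CPM (4.03–5.91), and the share of cells with a UMI was 0.837% and 2.49%. In macrophage-like cells it was at 4.98 CPM (1.83–10.8) and 39.4 CPM (31.8–48.3), a log2 ratio of 2.98 (1.81–4.47), and in monocyte-like cells at 0 of 62 cells, up to 5.83 CPM, and at 10.6 CPM. Both macrophage-like values rested on few cells. Without the cells with 10 or more C1q UMIs, a selection made after seeing the data, the log2 ratio was 0.36, and without the 5% of cells with the most UMIs it was 1.39, while 1 old cell held 32 of the 93 UMIs and 1 young cell 4 of the 6. Without the 1% of cells with the most C4b, which left 1 young UMI, it was 4.51. RNA of PT cells was found in all classes, and its markers give a measure of this. Per 1000 UMIs of the 9 PT markers, old PT-like cells had 13.7 C4b UMIs, old T-like cells 20.3 (16.7–24.5), old monocyte-like cells 77.3 (51.4–112) and old macrophage-like cells 329 (265–403). The ratio in T-like cells was the nearest of these to that of PT-like cells, and the ratio in macrophage-like cells was far above it. Cells with 5 or more PT markers were kept out of the other classes, which lowers the denominator there, and the part of free RNA in these values was not tested.

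C2, which encodes the protease that forms the C3 convertase together with C4b, was a gene of PT-like cells. It was at 22.0 CPM (21.1–22.8) when young and at 45.1 CPM (43.4–46.7) when old, a log2 ratio of 1.04 (0.96–1.12). C2 UMIs were in 29.1% and 48.0% of cells, or 2.52% and 4.96% with thinning. Among cells with Xist and without Y-linked UMIs the log2 ratio was 0.77, below 2-fold. The class with the next highest C2 in both libraries was ILC2-like, with 10.8 CPM (8.69–13.4) when young and 17.4 CPM (11.8–24.9) when old. A C2 UMI was found in 71 of 1427 young ILC2-like cells (4.98%, 3.91–6.23%) against 0.628% of young T-like cells at a similar median depth, 5251 and 4614 UMIs per cell. Per 1000 PT marker UMIs, young ILC2-like cells had 20.4 C2 UMIs (16.3–25.1), young PT-like cells 1.62 and young T-like cells 2.29. The ILC2-like interval also lay above those of young B-like, NK or ILC1-like and endothelial-like cells. It overlapped those of the other classes, which had few C2 UMIs, such as young macrophage-like cells at 8.70 (2.37–22.3) and neutrophil-like cells at 6.54 (0.792–23.6). Cells with 5 or more PT markers were kept out of these classes too, and the part of free RNA was not tested. The difference between the ages in ILC2-like cells, a log2 ratio of 0.68 (0.03–1.30), was -0.67 among cells with Xist and without Y-linked UMIs, where the old library had only 2 UMIs.

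C3, the central component, was a gene of myeloid cells and, at lower levels per class, of PT-like cells. Young macrophage-like cells had 150.2 CPM (129–174) and old ones 456 CPM (429–484), a log2 ratio of 1.60 (1.37–1.84). Monocyte-like cells had 237 CPM (197–283) and 333 CPM (311–355), a log2 ratio of 0.49 (0.21–0.77). Neutrophil-like cells had 106 CPM (70.3–153) and 149 CPM (112–193), and the interval of their log2 ratio, 0.49 (-0.19 to 1.20), included 0. By CPM monocyte-like cells were the highest class in the young library and macrophage-like cells in the old one. The old order turned without the 1% of cells with the most C3, at 241 CPM in macrophage-like and 322 CPM in monocyte-like cells, and cells with a C3 UMI were 63.9% and 73.9%. In the young library 31.9% of macrophage-like cells had C3 UMIs. In T-like cells a C3 UMI was found in 0 of 478 young cells and 0.452% of old ones. After thinning to 1000 UMIs the macrophage-like shares were 8.18% and 15.8%.

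The C3 level of old macrophage-like cells was carried by few cells. 1 of the 147 cells held 286 of the 1077 C3 UMIs, and without the 1% of cells with the most C3 UMIs the log2 ratio was 1.02. Without the 5% of cells with the most UMIs of any gene it was 1.13. C3 and C1q overlapped differently in the libraries. In the old library C3 was at 707 CPM in the 43 cells with 10 or more C1q UMIs and at 266 CPM in the 100 cells with none, while in the young library it was at 121 CPM in 64 and 165 CPM in 94 such cells. Without the cells with 10 or more C1q UMIs the log2 ratio of C3 was 0.74, and among those cells alone it was 2.54, both computed after seeing the data.

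In young PT-like cells C3 was at 4.70 CPM (4.31–5.12) and in old ones at 16.3 CPM (15.4–17.4), a log2 ratio of 1.80 (1.64–1.95). Unlike C4b, C3 was in few PT-like cells, 5.61% of young and 8.02% of old cells, and the 1% of cells with the most C3 held 45.3% and 64.1% of its UMIs. Without them the log2 ratio was 1.18. Since PT-like cells were many, they held 44.4% of young and 25.5% of old C3 UMIs, against 15.5% and 26.0% in macrophage-like cells.

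Cfb, which encodes factor B of the alternative pathway, was found in PT-like cells of both libraries and in mononuclear phagocytes mainly of the old one. Young PT-like cells had 21.0 CPM (20.1–21.8) and old ones 44.1 CPM (42.5–45.8), a log2 ratio of 1.07 (0.99–1.15), which was 0.57 among cells with Xist and without Y-linked UMIs. The share of PT-like cells with a UMI was 28.5% and 46.2% (2.30% and 4.44% after thinning). Young macrophage-like cells had 10 UMIs or 8.30 CPM (3.98–15.3) and old ones 153 UMIs or 64.8 CPM (54.9–75.9), a log2 ratio of 2.97 (2.05–4.05). Monocyte-like cells had 5.83 CPM (1.20–17.0) and 41.8 CPM (34.4–50.4), a log2 ratio of 2.84 (1.26–5.14), from 3 UMIs in the young library. Cfb thus stood higher in both phagocyte classes of the old library. It was found in 29.9% of old macrophage-like and 26.5% of old monocyte-like cells, against 0.578% of old T-like cells and 0 of 99 old neutrophil-like cells, a level of up to 7.97 CPM. Per 1000 PT marker UMIs old macrophage-like cells had 541 Cfb UMIs (458–633), old monocyte-like cells 304, old T-like cells 4.25 and old PT-like cells 3.57.

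Cd55, the regulator, had its highest level in B-like cells and no UMI in macrophage-like, monocyte-like and ILC2-like cells, classes that had C3 or C2. Young B-like cells had 477 UMIs or 348 CPM (317–380.2) and old ones 164 UMIs or 164 CPM (139.6–191). The level was lower in old B-like cells, with a log2 ratio of -1.09 (-1.35 to -0.83), and the share of cells with a UMI was 239 of 345 (69.3%, 64.1–74.1%) against 68 of 157 (43.3%, 35.4–51.4%). After thinning to 1000 UMIs, which left out 6 young and 3 old cells, the shares were 23.3% and 14.3%. T-like cells had 27.5 CPM (21.3–34.8) and 35.8 CPM (33.3–38.3), a log2 ratio of 0.38 (0.02–0.76) in the opposite direction. In the 6 young plasma-like cells Cd55 was at 75.5 CPM and in 64 old ones at 14.7 CPM, a log2 ratio of -2.36 (-3.45 to -1.12) that rests on 9 young UMIs. No Cd55 UMI was found in 1427 young and 314 old ILC2-like cells, which allows up to 0.374 and 1.74 CPM and a share of up to 0.210% and 0.955% of cells with a UMI. None was found in macrophage-like cells either, which allows up to 2.49 and 1.27 CPM, or in monocyte-like cells. Neutrophil-like cells, which had C3, did have Cd55, at 18.9 CPM (6.13–44.1) from 5 UMIs and 39.9 CPM (22.3–65.8) from 15 UMIs. PT-like cells had 0.308 CPM and 0.587 CPM. T-like cells held 7.99% of Cd55 UMIs in the young library and 55.5% in the old, with 478 and 3980 cells, and B-like cells held 56.1% and 11.3%.

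**Figure D2:**
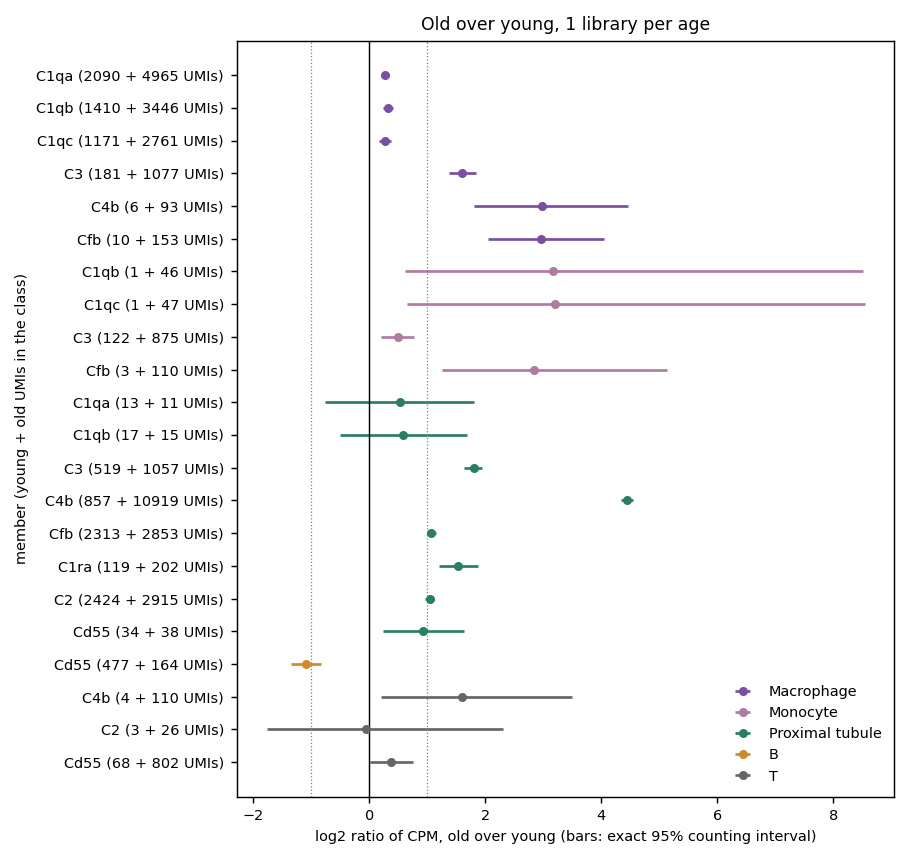
Log2 ratio of CPM, old over young, for members with 20 or more UMIs over both libraries and at least 1 in each, by class, with exact binomial 95% intervals for counting error only. C4b in PT-like cells stands highest at 4.44, C3 and Cfb lie above 0 in macrophage-like cells, and Cd55 in B-like cells lies below 0 at -1.09; C1q ratios of 0.27 to 0.32 in macrophage-like cells change sign with the mean over cells.

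Counted over the members, PT-like cells had 8 of 9 with at least 20 UMIs over both libraries, and 5 of these (C3, C4b, Cfb, C1ra and C2) were at least 2-fold higher in the old library. Over all 14539 genes tested, 4.40% were that much higher, and the median log2 ratio of the members was 1.06 against 0.00 over all genes. No member was 2-fold lower, against 4.33% of all genes. In macrophage-like cells 6 members could be counted and 3 (C3, C4b and Cfb) were 2-fold higher against 6.13% of 8804 genes, 0 were lower against 6.17%, and the median was 0.96 against -0.01. In T-like cells 1 of 4 members (C4b) was higher against 8.36% of 12394 genes, and 0 were lower against 6.36%. These counts rest on the size of the ratio alone, with no test. Because the members were chosen with earlier results of these data known, the shares over all genes are no independent yardstick for them.

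PT-like cells were then divided by injury markers (Havcr1, Vcam1, Krt20, Lcn2, Spp1, Sox9, Sox4 and Cd44), genes that tubule cells express after damage, none of which is a member. Cells with UMIs of at least 2 of these 8 genes, called injury-marked here, numbered 1093 of 6078 in the young and 600 of 3443 in the old library. In the old library C3 was at 59.7 CPM (55.5–64.0) in injury-marked and 5.47 CPM (4.85–6.15) in the other cells, a log2 ratio of 3.45 (3.25–3.65). In the young library it was at 5.26 CPM and 4.53 CPM, and the interval of the log2 ratio, 0.21 (-0.08 to 0.50), included 0. C3 therefore went with the injury markers in the old library, and such a relation was not detectable in the young one. Injury-marked cells of the libraries were not alike, however, since Vcam1 was at 2.90 CPM when young and 90.5 CPM when old, Sox9 at 0.116 and 14.8 CPM and Havcr1 at 8.70 and 32.7 CPM. The part of these marker levels in the difference of C3 was not tested. The log2 ratio of C3, old over young, was 3.51 (3.24–3.78) among injury-marked cells and 0.27 (0.05–0.50) among the others, which combine cells with 0 and with 1 marker that differed in opposite directions.

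The number of injury markers gave a graded picture for C3 in the old library. Cells with 0, 1, 2 and 3 or more markers had 2.96, 6.88, 20.4 and 224 CPM of C3 in the old library, the last from 102 cells, of which 46.1% had a C3 UMI. In the young library the same bins had 5.08, 4.20, 5.16 and 6.47 CPM, the last from 65 cells. C3 was thus lower in old than in young cells without any marker, with a log2 ratio of -0.78 (-1.25 to -0.33). It was higher in old cells with 1 marker, with 0.71 (0.44–0.98), and in those with 3 or more, with 5.12 (4.30–6.08), a bin in which Vcam1 was at 20.5 CPM when young and 334 CPM when old. Cells with more markers also had more UMIs, a median of 13434 at 0 and 23381 at 3 or more markers in the old library and 12328 and 26466 in the young. When all cells were thinned to 1000 UMIs before markers were counted, the log2 ratio of C3 in old injury-marked cells was 5.03. The summed macrophage and monocyte markers, 15 genes, were at 42.9, 34.6, 29.2 and 31.3 CPM over the 4 bins of the old library. Cells with 3 or more of these markers were kept out of the PT-like class, which holds these levels down in every bin. Among those left out were 35 old cells past the phagocyte and PT gates. The part of phagocyte RNA in the C3 of these bins was not tested.

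In the old library C2 and C1ra were also higher with more injury markers, and C4b less steeply. Over the 4 bins of the old library C2 was at 31.3, 45.2, 55.9 and 99.8 CPM and C1ra at 0.969, 3.20, 4.77 and 11.2 CPM. C4b was at 156 (150.1–161), 166 (162–171), 177 (169–185) and 264 (244–285) CPM, and Cfb at 45.1, 41.1, 42.9 and 81.4 CPM. For Cfb only the bin with 3 or more markers stood above the rest. C4b was higher in the old library in every bin, with log2 ratios, old over young, from 4.03 (3.85–4.20) in cells without a marker to 6.13 (5.08–7.45) in those with 3 or more, the latter on 7 young UMIs. Of 6 members with at least 20 UMIs, 2 (C3 and C1ra) were 2-fold higher in injury-marked cells of the old library, against 8.04% of 13034 genes. Another, Cd55, was 2-fold lower there, against 1.79% of genes, with a log2 ratio of -1.09 (-3.05 to 0.40) that rests on 4 UMIs in injury-marked cells. In the young library 0 of 6 were higher, against 7.90% of 13801 genes, and 0 were lower, against 1.22%. Log2 ratios of injury-marked over other young cells were 0.73 (0.14–1.29) for C1ra and 0.28 (0.15–0.41) for C2. For C4b and Cfb they were -0.34 (-0.59 to -0.09) and -0.21 (-0.36 to -0.06), and the median over all genes was 0.20.

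**Figure D3:**
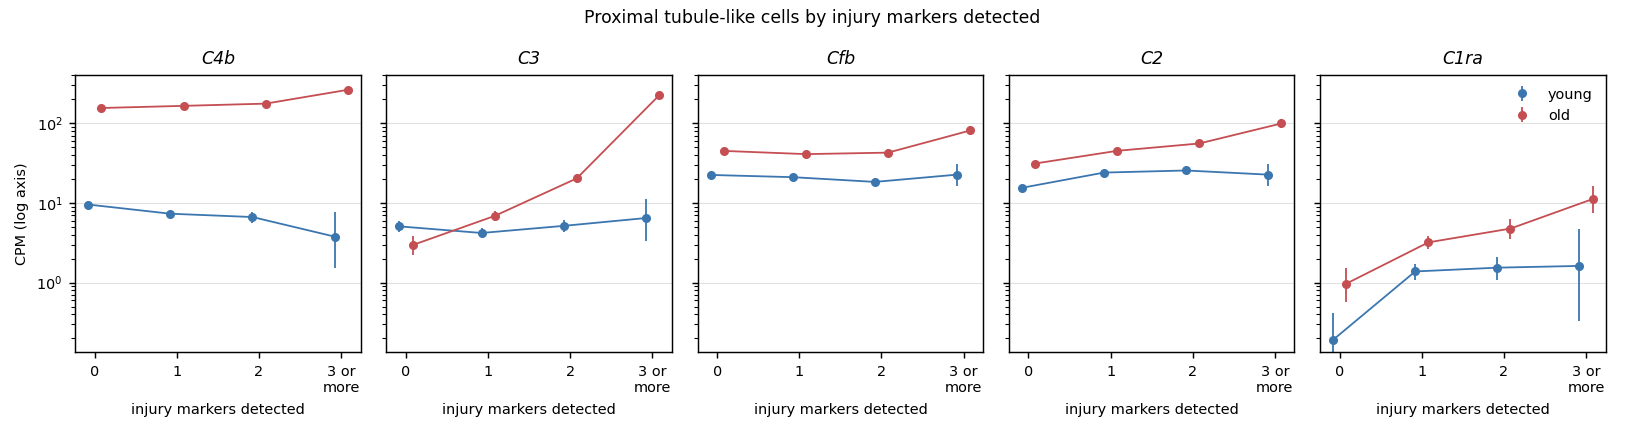
Level of C3, C4b, Cfb, C2 and C1ra (CPM, log axis) in PT-like cells with 0, 1, 2 and 3 or more of 8 injury markers, young and old libraries apart, with exact Poisson 95% intervals. C3 in the old library goes from 2.96 to 224 CPM over the bins and stays between 4.20 and 6.47 CPM in the young, whereas old C4b lies above young C4b in each bin.

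Genes that interferon induces were set beside the members, since complement genes are known interferon targets. All 8 of them were at least 2-fold higher in old PT-like cells, against 4.40% of all genes, with a median log2 ratio of 5.73. Gbp2, a GTPase, was at 0.217 CPM when young and 140.3 CPM when old, and Isg15, a ubiquitin-like protein, at 0.326 and 22.9 CPM. In macrophage-like cells 0 of the 8 differed 2-fold, against 6.13% of genes higher, and the median log2 ratio was 0.06. Of those that could be counted, 7 of 7 were higher in ILC2-like cells (median 2.22, 2.70% of genes), 3 of 5 in B-like cells (1.90, 4.39%), 3 of 8 in monocyte-like cells (0.72, 8.17%) and 0 of 8 in T-like cells (0.41, 8.36%). The interferon genes and C4b thus both stood higher in old PT-like cells. When PT-like cells with at least 5000 UMIs, 5285 young and 3117 old, were thinned to that depth and divided by how many of the 8 genes they had, old cells with 0, 1, 2 and 3 or more had 105, 151, 204 and 253 CPM of C4b and 5.12, 11.4, 20.4 and 36.8 CPM of C3. Young cells with 0 had 7.40 CPM of C4b, and 4794 of the young cells were in that bin. C4b was thus higher in old than in young cells without a detected interferon gene. A gene without a UMI at this depth may still be expressed, so these bins need not have equal interferon-gene levels. The part of interferon in the C4b difference was not tested. Cfb varied less over the old bins, from 38.4 to 51.7 CPM, and C2 from 35.4 to 56.5 CPM. Only 6 young cells had 3 or more of the genes, with 119 CPM of C4b (66.7–197) from 15 UMIs.

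**Figure D4:**
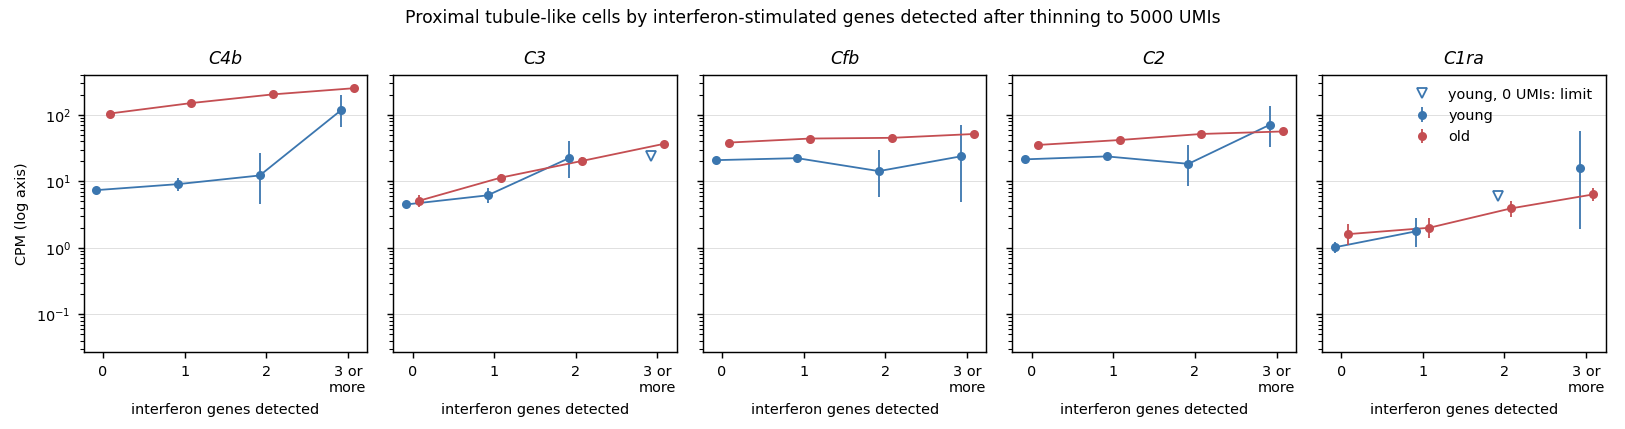
Level of C3, C4b, Cfb, C2 and C1ra (CPM, log axis) in PT-like cells grouped by how many of 8 interferon-stimulated genes they had after thinning to 5000 UMIs, with exact Poisson 95% intervals and open symbols at the limit of 3 counts. Old C4b goes from 105 to 253 CPM over the bins and lies above young C4b in each of them; the young bins with 2 and 3 or more genes hold 29 and 6 cells.

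The members also differed along the nephron. PT-like cells were divided by markers of segments S1 and S2 (4861 young, 2977 old cells) and of S3 (1207 and 463 cells). C2 was at 25.3 CPM in S1 and S2 and 9.46 CPM in S3 of the young library, and at 47.9 and 24.1 CPM in the old, with log2 ratios, S1 and S2 over S3, of 1.42 (1.22–1.62) and 0.99 (0.77–1.21). C1ra had log2 ratios of 1.87 (0.84–3.12) and 1.91 (0.84–3.25), which rest on 8 young and 7 old UMIs in S3. Both genes thus stood higher in the early segments of both libraries. By CPM C3 and Cfb changed order, with log2 ratios of -0.61 (-0.89 to -0.33) and 0.47 (0.30–0.63) in the young library and 0.91 (0.56–1.28) and -0.35 (-0.50 to -0.20) in the old. By shares of cells with a UMI C3 did not change order. These shares were 4.59% in S1 and S2 and 9.78% in S3 when young, and 7.86% and 9.07% when old. In the old library 45 PT-like cells with 5 or more C3 UMIs held 732 of the 1057 C3 UMIs. C4b was at 8.48 and 5.03 CPM in the young and at 171 and 151 CPM in the old library, so its higher level in the old library was found in both segments. PT-like cells with Xist and without Y-linked UMIs (median 16288 UMIs young, 15828 old) had less C4b than cells with Y-linked UMIs and without Xist (median 19470.0 and 20987), 82.2 against 195 CPM in the old and 5.18 against 8.51 CPM in the young library, and more C2, 60.1 against 41.6 CPM and 35.3 against 19.2 CPM. C1ra was also higher in the cells with Xist, at 4.48 against 3.02 CPM in the old and 1.99 against 1.01 CPM in the young library. Between the libraries C4b had log2 ratios of 3.99 (3.62–4.38) and 4.52 (4.40–4.63) within these groups of cells. Segments and these groups were not separated from each other in these values.

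Of the 56 genes of the pathway lists, which include the members, 30 could be counted in PT-like cells. Of these, 8 were 2-fold higher in the old library, against 4.40% of all genes, and 2 lower, against 4.33%. The 30 include 8 members and the 8 higher genes include 5 members, so these counts in part repeat those of the members. The pathway lists, too, were chosen with earlier results of these data known. Apart from the members the higher ones were C1rb, a copy of C1ra, C9, a component of the membrane attack complex with 12 and 15 UMIs, and Serping1, the C1 inhibitor. Serping1 had 6 UMIs or 0.0543 CPM in PT-like cells when young and 137 UMIs or 2.12 CPM (1.78–2.50) when old, a log2 ratio of 5.28 (4.13–6.76). The lower ones, Masp1, a lectin pathway protease, and Cd93, an endothelial receptor, had 18 and 4 and 19 and 2 UMIs. Cfi, which inactivates C3b, was at 2.71 and 5.13 CPM, while C8g, a chain of C8, was at 26.3 and 21.8 CPM and Mbl1, a mannose-binding lectin, at 10.5 and 7.20 CPM. In macrophage-like cells properdin (Cfp), which stabilizes the C3 convertase, was at 110.4 CPM when young and 193 CPM when old, a log2 ratio of 0.80 (0.52–1.09). Clusterin (Clu), which binds terminal complexes, was highest in cells with loop, distal tubule or collecting duct markers, with 127 CPM over 29 cells when young and 1206 CPM over 121 when old. Cr1l, a regulator that also controls C3b on the surface of rodent cells, was at 30.4 to 170.2 CPM in every class, the Cd55-free classes included. Among the receptors, C5ar1 was highest in neutrophil-like cells, at 514 and 622 CPM, C3ar1 in macrophage-like cells, at 68.9 and 72.4 CPM, and Cr2 in B-like cells, at 72.9 and 50.9 CPM.

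Genes whose pattern over classes was most like that of each member were found among 14644 genes by Pearson correlation of log2(CPM + 1) over 22 pairs of class and library, which share libraries and free RNA, so the values are a description. The chains of C1q were among each other's nearest genes, with r = 0.985 for C1qb and C1qc. C3 was nearest to Csf1r, a macrophage marker of the gate (0.950), and to Clec4n (0.950). C4b was nearest to Tnfaip8l3 (0.801) and Ubd (0.762), Cfb to Fkbp1b (0.884) and Cp, which encodes ceruloplasmin (0.857), C2 to Folh1 (0.862), C1ra to Lhfpl2 (0.909), and Cd55 to Cdc25b (0.762). With an offset of 10 in place of 1, 13 of the 27 nearest genes were the same.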

How the data were processed

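The count matrices were made by the authors with Cell Ranger 3.1.0 on mm10 and deposited as raw UMI counts per gene and barcode, without normalization. Reads were not analysed here. The members, marker lists and pathway lists were chosen with earlier results of these data known, and the gate rule was set after the data were seen. A detected marker had at least 1 UMI. The gates required 3 markers (5 of 9 for PT, 4 for neutrophil and plasma, 2 for NK or ILC1), and macrophage and monocyte markers shared a gate split by the larger share of each list. All 9 members are named in the classes with at least 50 cells, other pathway genes with at least 100 UMIs could be named, up to 10 per list by level, and the 3 nearest genes per member. Not every such gene is reported here. C9, Masp1, the C1ra copy and the UMI-rich cells were named after their values were seen.

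Summed UMIs were scaled to 1000000. No doublet caller was run. With 1 library per age no p-value was computed, and "higher" and "lower" in counts of genes mean a 2-fold difference of CPM among genes with at least 20 UMIs over both libraries. Thinning used seed 7. Kept cells held 145647185 young and 119218130 old UMIs, which sets the counting intervals. SciPy 1.17.1, pandas 2.3.3, NumPy 2.4.6 and Matplotlib 3.10.9 were used under Python 3.11.15, and the counting steps were tested on simulated data. The alternatives changed the gate, the filters on cells, the total, the averaging, the cells used, the thinning depth, the injury rule, the fold and the offset.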

Additional observations from a re-analysis of the deposited data

Results flagged for a closer look

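Cd55 differed between the libraries in opposite directions in B-like and T-like cells. The log2 ratio, old over young, was -1.09 in B-like and 0.38 in T-like cells, and with 1 library per age the difference between them was not tested.

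C3 in PT-like cells did the same by injury markers, with a log2 ratio of -0.78 in cells with 0 markers and 5.12 in cells with 3 or more. This difference was not tested.

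Cells that entered no class also held C1q. Summed over the 3 chains, young cells past several gates had 117 CPM and old ones 69.0 CPM, and cells past no gate 28.1 and 34.7 CPM, above the level in T-like cells of 0.404 and 1.47 CPM. Of the young cells past several gates, 26 of 722 had all 3 chains, and of the old ones 14 of 655.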

How the results depend on the processing

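No paired analysis was possible because there is 1 library per age, and no replicate could be left out. Of the log2 ratios between libraries under all alternatives, 148 stayed within the counting interval, 32 moved outside it and 8 changed sign; 8 combinations had 0 UMIs in a library and gave no value. Cfb in macrophage-like and Cd55 in B-like cells stayed within their intervals wherever a value was had. In macrophage-like cells, with cells assigned by likelihood the log2 ratio was 0.75 for C1qa and 3.02 for C3. Without the 5% of cells with the most UMIs it was -0.29 for C1qa, -0.11 for C1qb, -0.27 for C1qc, 1.13 for C3 and 1.39 for C4b. With the mean of each cell's CPM it was -0.68, -0.57 and -0.65 for the C1q chains. Without the 1% of cells with most of the member it was 0.19 for C1qa, 1.02 for C3 and 4.51 for C4b, and in PT-like cells 1.18 for C3 and 4.61 for C4b. Among cells with Xist and no Y-linked UMI it was 0.66 for C1qa and 2.32 for C3 in macrophage-like cells, 1.95 for C3, 3.99 for C4b, 0.57 for Cfb and 0.77 for C2 in PT-like cells, and -0.67 for C2 in ILC2-like cells. Among cells with Y-linked UMIs and no Xist it was 1.30 for C3 in macrophage-like, 1.12 for C2 in PT-like and -0.33 for C3 in neutrophil-like cells. Without cells with 10 or more C1q UMIs it was 0.74 for C3 and 0.36 for C4b, and among those cells alone 2.54 for C3, both chosen after seeing the data. In PT-like cells C3 was at 1.57 by likelihood and 1.61 by the mean of cells. PT-like cells with C4b were 0.461% young and 6.74% old at 500 UMIs, and 1.71% and 23.5% at 2000. Injury-marked over other cells, C3 in the old library was at 4.81 with 3 markers required and 5.03 after thinning, and Cfb in the young library changed sign to 0.11 with 3 markers. At 1.5-fold, 13 pathway genes, members included, were higher in PT-like cells in place of 8. The cause was not tested for any of these. Few UMIs limit C1ra and Cd55 in PT-like cells, and few cells limit the members in young monocyte-like (62), young plasma-like (6) and old endothelial-like cells (15), C3 in the first less so with 122 UMIs.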

Other observations

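Detection of the members in the same PT-like cell was counted at 5000 UMIs per cell. In the old library C4b was found in 59.2% of the 125 cells with C3 and in 44.7% of the 2992 without, and Cfb in 34.4% and 17.9%. Old cells with C4b also more often had Cfb, 23.0% against 14.9%, and C2, 23.0% against 18.2%. In the young library C4b was found in 6.90% of the 87 cells with C3 and in 3.48% of those without, and Cfb in 10.3% and 10.2%. Young cells with C4b had Cfb in 13.9% against 10.1%, and C2 in 10.2% against 11.1%. These are shares over cells of 1 library, given without a test.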
